A study of Mus musculus with 2 samples.

Results

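Molecular motors turn the energy of ATP into movement along the cytoskeleton. Their genes were picked from the deposited table by symbol, as rows that begin with Kif or Kifc and a number (kinesins), with Dync, Dynl or Dctn (dynein and its cofactor dynactin), or with Myo and a number (myosins). This gave 90 of 23282 rows. Of these, 87 were motor subunits (41 kinesins, 22 subunits of dynein and dynactin, and 24 myosins) and 3 were not, namely a kinesin-binding protein, a pseudogene and an antisense RNA. The rule used no measured value, and its members were followed in iTreg cells, regulatory T cells induced in culture.

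Both groups held naïve CD4+ T cells from the spleens of wild-type C57BL/6 mice, activated through CD3 and CD28 and cultured for 1 day with IL-2, TGF-β1 and antibodies that block IFN-γ and IL-4. The control culture received DMSO, the solvent, and the other culture received 10 μM Tubastatin A (TSA below), an inhibitor of the deacetylase HDAC6. Each condition gave 1 library, so no difference below has a replicate check and no p-value was computed. The library kit reads the 3′ end of each polyadenylated transcript. The libraries held 10846152 reads (control) and 10432695 reads (TSA), of which 33745 (0.311%) and 31847 (0.305%) lay on the motor rows.

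Every fold below is the TSA value over the control value, each a normalized count plus 1, and the range behind it is a 95% counting interval (exact Clopper-Pearson on the reads). These intervals compare the 2 libraries, not the conditions, and they cover counting error only, since PCR copies of a molecule could not be told from separate molecules. The main call was a difference of more than 2-fold among the 12164 genes that reached 10 reads in 1 library or both (called genes with enough reads below), of which 64 were motor subunits. In this set 11.5% of all genes lay above the control by more than 2-fold in TSA and 3.15% lay below it by as much. The excess of higher calls lay in genes with few reads, and of the 8188 genes whose normalized count averaged 100 or more over both libraries 1.48% passed 2-fold upwards and 1.31% downwards. With the milder limit of 1.5-fold, 18.7% were higher and 8.34% lower, and the counting interval lay above 1 for 28.1% of the genes and below 1 for 28.0%.

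Kinesins and dynein walk on microtubules, most kinesins towards the growing plus ends and dynein towards the minus ends at the centrosome. Mitotic kinesins build the spindle, move chromosomes and finish cytokinesis, and their transcripts peak late in the cell cycle, whereas transport kinesins carry vesicles, mitochondria and protein complexes in cells at any stage. Dynein brings cargo inwards with the help of dynactin and, in T cells, draws the centrosome to the contact with an antigen-presenting cell. Myosins walk on actin, and the members matched here are the unconventional ones, which carry membranes, tether organelles or shape protrusions. HDAC6, the target of TSA, removes acetyl groups from α-tubulin in microtubules and binds dynein.

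The libraries carried markers of CD4 T cells, which do not by themselves show Treg identity. Cd4, Cd28, Lck and the CD3 genes Cd3d, Cd3e and Cd3g had between 602 and 4531 reads in either library. Summed over their lists, markers of other cells were low, with 63 and 50 reads for myeloid cells (7 genes), 0 and 1 for NK cells (3 genes), 43 and 58 for erythroid cells (4 genes), and 80 and 87 for CD8 T cells (2 genes), control first. Klrb1c and Klre1 were at 0 in both libraries, Ncr1 at 0 in the control and Adgre1 at 0 in TSA. Of the B cell genes, Cd79a had 1 and 5 reads, Cd79b 11 and 4, and Ms4a1 0 and 5.

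**Figure D1:**
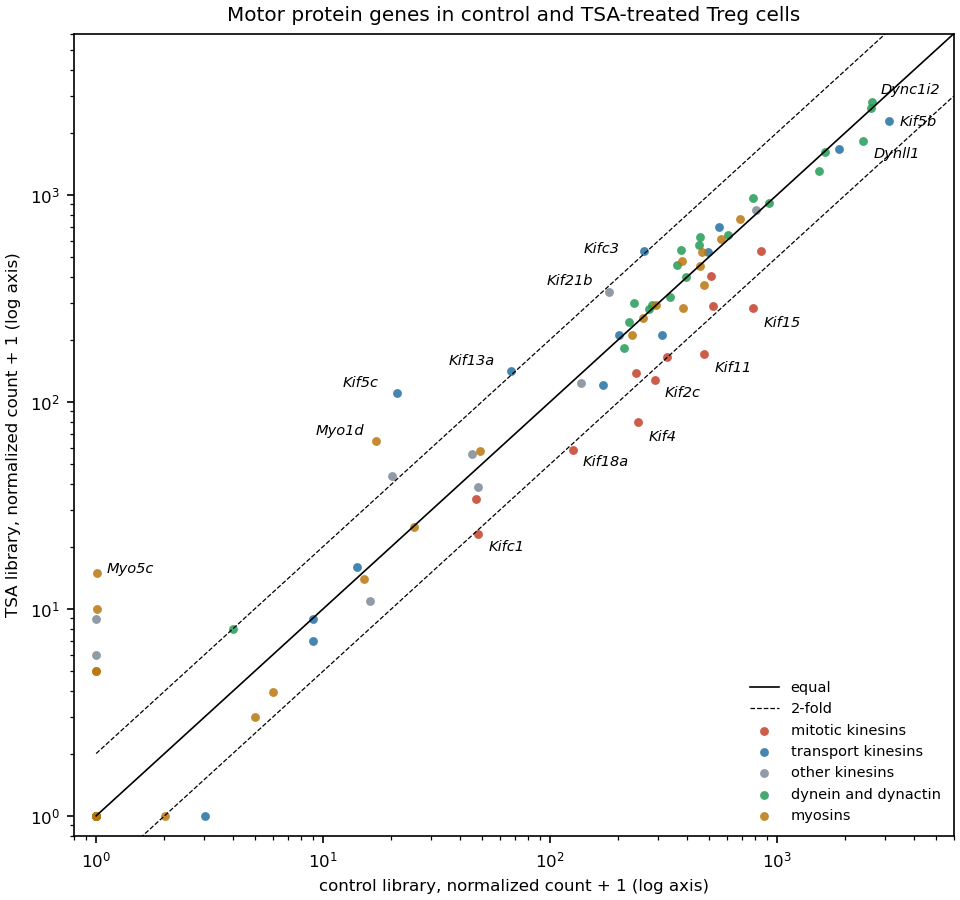
Normalized count plus 1 of the 87 motor subunits in the control library (x axis) and in the TSA library (y axis), both on log axes, with 1 point per gene coloured by class. The solid line marks equal values and the dashed lines a 2-fold difference. Most points follow the solid line, while 6 mitotic kinesins lie below the lower dashed line, with Kif1a (2 and 0 reads) and Myo18b (1 and 0 reads) at its lower end, and Kif5c, Myo1d, Myo5c and a few genes with 0 reads in control lie well above the upper one.

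The 5 classes did not move alike. Their lists were set with earlier results of these data known. Kif2a and Kifc5b, relatives of the mitotic kinesins Kif2c and Kifc1, were placed among the other kinesins and had folds of 1.04 and 0.804. All 12 mitotic kinesins with enough reads were lower in TSA, 6 of them by more than 2-fold (3.15% of all genes) and 10 by more than 1.5-fold (8.34% of all genes), with a median log2 change of -1.03. The 11 transport kinesins were split, with 7 higher and 4 lower and a median of 0.09, and the 7 other kinesins had a median of 0.06. The 19 subunits of dynein and dynactin stayed within 1.5-fold, with a median of 0.07. The median of the 15 myosins was 0.01, and all 12164 genes had a median of 0.01 with 48.6% of them lower in TSA. Together the motor subunits gave 6 genes past 2-fold upwards and 6 downwards, against 11.5% and 3.15% of all genes, and every one of the 6 lower genes was a mitotic kinesin.

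The same order held among the well-covered genes. For normalized counts that averaged 100 or more, the median log2 change was -0.99 for 9 mitotic kinesins, 0.07 for 9 transport kinesins, 0.07 for 19 subunits of dynein and dynactin and 0.00 for 10 myosins, against -0.06 for all genes of that level. Taken as summed reads, the mitotic kinesins went from 4424 reads in control to 2309 in TSA, a ratio of 0.517 (0.491 to 0.544) after scaling. The sums of dynein and dynactin were 16600 and 16987 reads, a ratio of 1.01 (0.992 to 1.04), and those of the myosins 4276 and 4454 reads, a ratio of 1.03 (0.989 to 1.08). For all genes of the table the ratio of summed reads was 0.952. The transport kinesins summed to 7063 and 6540 reads, a ratio of 0.917 (0.886 to 0.948). This lay below 1 although their median change was above 0, and Kif5b held 3105 and 2275 of these reads. The other kinesins summed to 1244 and 1470 reads, a ratio of 1.17 (1.08 to 1.26).

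**Figure D2:**
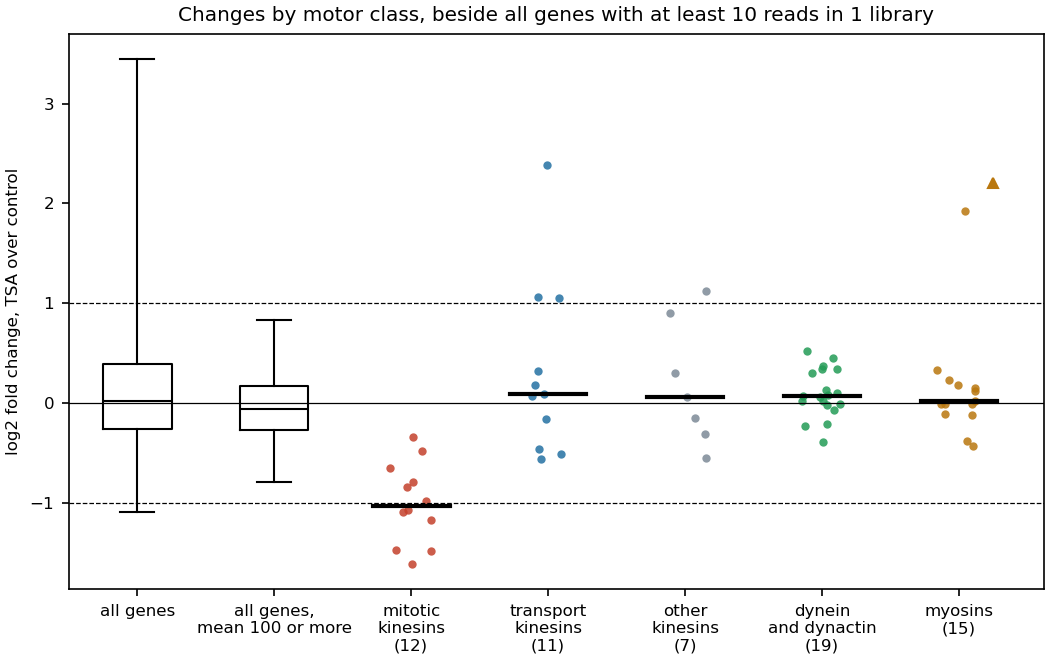
Log2 fold change (TSA over control) of the motor subunits with 10 or more reads in 1 library, with 1 point per gene and a black bar at the class median. The boxes give the median and quartiles of all genes and of those whose normalized count averaged 100 or more, with whiskers over the middle 95%, and dashed lines mark 2-fold. The mitotic kinesins lie wholly below 0 with a median of -1.03, while the medians of the other classes lie between 0.01 and 0.09. The triangle is Myo5c, drawn at its lower bound because it had 0 reads in control.

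Because the mitotic kinesins moved in one direction, the promoters of these genes are shown first. CHR elements and CCAAT boxes are short motifs known from genes expressed in G2 and mitosis, and E2F-type sites from genes of the G1 to S step. RefSeq windows (GRCm38.p6, 250 bases before to 50 bases after the start of transcription) were at hand for 67 of the 87 motor subunits and for 12 of the 13 mitotic kinesins, Kif20a having none. The motifs searched on both strands were TTTGAA or its variant TTCGAA for the CHR element, CCAAT for the box of that name, and TTTCGCGC or its variant TTTGGCGC for the E2F type, and none of these contains another. The windows below belong to Kif11 and Kif15, among the mitotic kinesins with the lowest TSA values relative to control, to Kif22 and Kif23, which have a CHR element and a CCAAT box near the start, to Kif18a, the 1 mitotic kinesin with reads and a window that lacks a CHR element, and, for contrast, to the transport kinesin Kif5c, which has none of the motifs. Capitals mark the motifs, and on the opposite strand these read TTCAAA for the CHR element, ATTGG for the CCAAT box and GCGCCAAA for the E2F type.
Kif11, chr19:37376132-37376431, plus strand: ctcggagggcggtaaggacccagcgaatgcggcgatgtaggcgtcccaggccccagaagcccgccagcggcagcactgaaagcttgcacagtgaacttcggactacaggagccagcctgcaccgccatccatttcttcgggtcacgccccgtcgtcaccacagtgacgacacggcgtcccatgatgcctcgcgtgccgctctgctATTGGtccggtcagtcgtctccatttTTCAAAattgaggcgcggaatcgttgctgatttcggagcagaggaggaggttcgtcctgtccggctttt
Kif15, chr9:122950831-122951130, plus strand: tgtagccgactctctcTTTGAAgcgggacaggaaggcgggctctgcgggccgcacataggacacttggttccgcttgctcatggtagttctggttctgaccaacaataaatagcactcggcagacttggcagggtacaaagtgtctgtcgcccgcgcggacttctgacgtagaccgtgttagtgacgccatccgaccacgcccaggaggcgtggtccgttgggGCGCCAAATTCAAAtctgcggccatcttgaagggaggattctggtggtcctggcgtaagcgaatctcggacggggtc
Kif22, chr7:127042371-127042670, minus strand: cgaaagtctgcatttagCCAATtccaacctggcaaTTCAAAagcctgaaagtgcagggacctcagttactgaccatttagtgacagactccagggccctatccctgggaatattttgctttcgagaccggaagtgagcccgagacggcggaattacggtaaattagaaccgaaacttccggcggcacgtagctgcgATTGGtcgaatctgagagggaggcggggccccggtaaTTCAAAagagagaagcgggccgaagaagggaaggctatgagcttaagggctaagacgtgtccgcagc
Kif23, chr9:61946750-61947049, minus strand: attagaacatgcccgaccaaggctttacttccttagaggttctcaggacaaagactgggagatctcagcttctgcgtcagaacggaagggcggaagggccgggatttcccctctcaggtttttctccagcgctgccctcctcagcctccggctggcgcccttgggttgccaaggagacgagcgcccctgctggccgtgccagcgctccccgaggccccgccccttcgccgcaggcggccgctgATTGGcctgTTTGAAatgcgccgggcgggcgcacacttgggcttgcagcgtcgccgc
Kif18a, chr2:109280488-109280787, plus strand: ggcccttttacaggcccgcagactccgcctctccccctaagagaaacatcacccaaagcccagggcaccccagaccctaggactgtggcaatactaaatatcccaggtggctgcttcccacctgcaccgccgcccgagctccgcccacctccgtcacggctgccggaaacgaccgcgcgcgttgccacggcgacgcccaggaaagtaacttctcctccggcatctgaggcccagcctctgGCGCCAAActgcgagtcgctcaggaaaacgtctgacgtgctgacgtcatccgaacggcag
Kif5c, chr2:49619036-49619335, plus strand: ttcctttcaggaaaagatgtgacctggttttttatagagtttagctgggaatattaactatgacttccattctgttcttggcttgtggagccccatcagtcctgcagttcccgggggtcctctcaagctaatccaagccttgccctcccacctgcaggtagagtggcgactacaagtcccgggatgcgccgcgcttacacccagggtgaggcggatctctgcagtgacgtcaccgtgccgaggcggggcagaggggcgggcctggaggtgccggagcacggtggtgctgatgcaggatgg

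A CHR element stood in 10 of 12 windows of mitotic kinesins (83.3%), against 19.2% of all 32851 windows and 13.8% of the windows of genes with enough reads. The share was 8.33% for transport kinesins (1 of 12 windows), 30.8% for other kinesins (4 of 13), 11.1% for dynein and dynactin (2 of 18) and 12% for myosins (3 of 25). Both a CHR element and a CCAAT box were found in 7 of 12 mitotic windows (58.3%) and in 7.52% of all windows, in 4 of 13 windows of other kinesins (30.8%), in 1 of 18 of dynein and dynactin (5.56%), and in 0 windows of transport kinesins and of myosins. In 8 mitotic windows (66.7%) a CHR element began within 20 bases of the start, a distance chosen after the positions were seen, against 2.33% of all windows. The start of transcription used for Kif4, 1 of these 8, lies 328 bases from the nearest transcript start of GENCODE. For Kif14 and Kif2c this distance is 87 and 28 bases. In Kif11 the CHR element began at position -19 and the CCAAT box at -45, counted from the start of transcription. In Kif15 the CHR element at -19 directly followed an E2F-type site at -27. Kif18a held an E2F-type site at -10 in place of a CHR element. E2F-type sites were found in 2 mitotic windows (16.7%), in 0.813% of all windows and in 0 windows of the other motor classes. These matches describe the sequence alone, and binding of any factor was not measured here.

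Among the kinesins that assemble the spindle and carry chromosomes, Kif4, a chromokinesin that shortens and bundles microtubules at the spindle midzone (X chromosome, 100625737 to 100727214, plus strand, mm10 as for all positions here), had the lowest ratio, with 242 reads in control and 79 in TSA and a fold of 0.326 (0.247 to 0.418). Kif11, also called Eg5, a tetramer that pushes the spindle poles apart (chromosome 19, 37376403 to 37421859, plus strand), had 475 and 171 reads, a fold of 0.358 (0.298 to 0.425). Kif15, which can take over spindle bipolarity when Kif11 is lacking (chromosome 9, 122951046 to 123018733, plus strand), had 780 and 283 reads, a fold of 0.360 (0.312 to 0.412). For these 3 genes the whole interval lay beyond 2-fold, as it did downwards for 99 of all 12164 genes. Kif22, the chromokinesin that pushes chromosome arms away from the poles, had 323 and 164 reads and fell just short of the 2-fold limit at 0.504 (0.414 to 0.609).

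Among mitotic kinesins that shorten or focus microtubules the ratios ranged from 0.442 to 0.716. Kif2c, a depolymerase at centromeres that corrects faulty attachments, had 286 reads in control and 127 in TSA, a fold of 0.442 (0.354 to 0.544). Kif18a, which dampens the movements of aligned chromosomes, had 124 and 58 reads, a fold of 0.467 (0.333 to 0.638). Its relative Kif18b, which acts on astral microtubules, had 46 and 33 reads, and its interval of 0.440 to 1.14 held 1. Kifc1, a minus-end motor that gathers the spindle poles, had 47 and 22 reads, a fold of 0.474 (0.266 to 0.785). Kifc1 shares sequence with Kifc5b: 27.9% of the 75-nt windows near its 3′ ends also occur in Kifc5b, so its reads are uncertain, and Kifc5b itself had 47 and 38 reads with an interval of 0.508 to 1.25. Kif2b, another depolymerase, had no read in either library, which allows at most 3 reads, or a CPM of 0.277 in control and 0.288 in TSA at these depths.

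The kinesins of cytokinesis were lower as well, but by less than 2-fold. Kif23, which forms the centralspindlin complex with Racgap1, had 516 reads in control and 290 in TSA, a fold of 0.557 (0.480 to 0.644). Kif14, which brings citron kinase to the midbody, had 236 and 137 reads, a fold of 0.576 (0.462 to 0.712), and Kif20b, a motor of late cytokinesis, had 842 and 540 reads, a fold of 0.636 (0.569 to 0.708). Kif20a, which carries the chromosomal passenger complex to the midzone (chromosome 18, 34624613 to 34633277, plus strand), had 507 and 405 reads, the smallest difference of the class at 0.791 (0.692 to 0.903). Its 3′ end is overlapped by Cdc23 on the opposite strand, and whether the counting used strand is not given in the sources used here. Of the 12 mitotic kinesins with enough reads, 11 had an interval wholly below 1, against 28.0% of all genes.

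**Figure D3:**
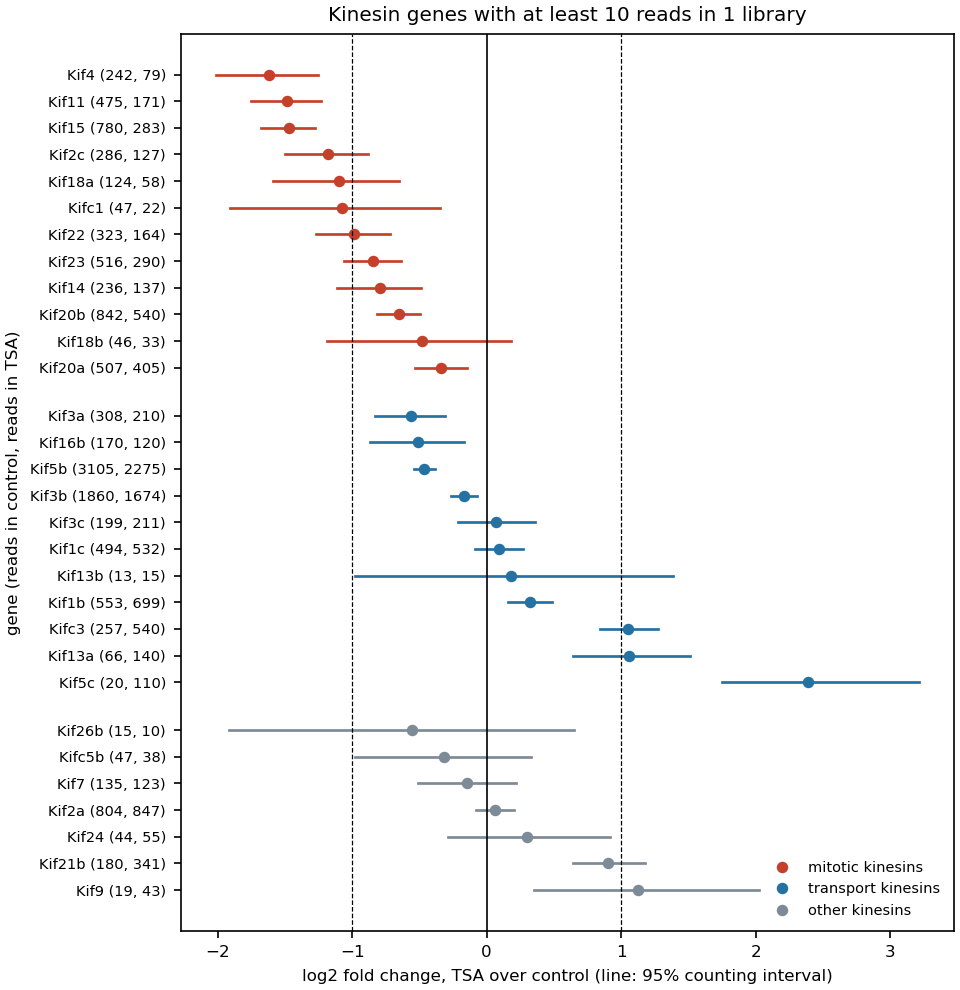
Log2 fold change (TSA over control) of each kinesin with enough reads, grouped and coloured as mitotic, transport or other kinesins, with the reads in control and TSA after each name. Points are the fold changes, horizontal lines their 95% counting intervals and dashed lines 2-fold. All 12 mitotic points lie left of 0, from -1.62 (Kif4) to -0.34 (Kif20a), while transport kinesins run from -0.56 (Kif3a) to 2.39 (Kif5c).

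The partners of these motors on the spindle were lower too. Of 12 spindle and midzone genes, 11 were lower in TSA (48.6% of all genes), 6 by more than 2-fold (3.15% of all genes), with a median log2 change of -0.97. Prc1, which crosslinks midzone microtubules, had 654 reads in control and 247 in TSA, a fold of 0.375 (0.322 to 0.434), with Rccd1 overlapping its 3′ end on the opposite strand. Cenpe, the kinesin of the kinetochore whose symbol the rule does not match, had 1218 and 485 reads, a fold of 0.395 (0.354 to 0.438). Birc5, Tpx2 and Plk1, a passenger complex subunit, a spindle assembly factor and a mitotic kinase, had folds of 0.395, 0.420 and 0.430, and the passenger complex scaffold Incenp 0.494. The mitotic kinases Aurkb and Aurka had folds of 0.530 and 0.590, and the passenger complex subunit Cdca8 0.537. Racgap1, the partner of Kif23, had 840 and 619 reads, a fold of 0.730 (0.657 to 0.810). Numa1, which anchors dynein at the spindle poles, was the 1 gene of the list that was higher, with 869 and 989 reads and a fold of 1.13 (1.03 to 1.24). A coding gene lies on the opposite strand of the 3′ end of Numa1, as of Ccna2 among the markers of dividing cells.

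Markers of dividing cells moved with the mitotic kinesins. All 6 of Mki67, Top2a, Pcna, Ccnb1, Ccna2 and Cdk1 were lower in TSA with an interval below 1 (28.0% of all genes), 1 of them by more than 2-fold (3.15% of all genes), with a median log2 change of -0.91 and summed reads of 18230 and 10409. Mki67, the proliferation marker Ki-67, had 1861 reads in control and 653 in TSA, a fold of 0.348 (0.317 to 0.380), and Pcna had the smallest difference of the 6 at 0.744 (0.707 to 0.782). Their part in the kinesin result was not tested. In RNA from whole cultures, fewer cells in mitosis and less kinesin RNA per cell cannot be told apart.

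The transport kinesins showed 3 genes past 2-fold upwards and 0 downwards, and an interval above 1 for 4, below 1 for 4 and holding 1 for 3, beside 11.5% and 3.15% of all genes past 2-fold and 28.1% and 28.0% by interval. Kinesin-1, the main plus-end carrier of vesicles and mitochondria, is built from a pair of heavy chains and a pair of light chains. Of its heavy chains, Kif5b, the form found in most tissues (chromosome 18, 6201002 to 6242174, minus strand), had 3105 reads in control and 2275 in TSA, a fold of 0.725 (0.687 to 0.766). Kif5c, a form best known from neurons (chromosome 2, 49619298 to 49774778, plus strand), had 20 and 110 reads, a fold of 5.23 (3.36 to 9.26), the highest of any kinesin with enough reads. The heavy chains thus differed in direction, and no 75-nt window near the 3′ ends was shared between Kif5b and Kif5c. Over the whole table, genes whose normalized counts averaged 20 to 100, as those of Kif5c do, had a median log2 change of 0.26. Of these genes 441 of 2368 were higher by more than 2-fold. Genes that averaged 500 or more, as Kif5b does, had a median of -0.11. Kif5a, the other neuronal form, lay just under the read minimum with 8 reads in each library.

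Of 9 kinesin light chain and partner genes with enough reads, 8 were higher in TSA and 1, Kif1bp, matched by the symbol rule and described at the end, was lower (0.598, 0.448 to 0.788). The 8 outside the rule had a median log2 change of 0.32, with 0 past 2-fold (11.5% of all genes) and an interval above 1 for 5 (28.1% of all genes), and of all 12164 genes 6246 were higher. Klc4 had 76 reads in control and 134 in TSA, a fold of 1.74 (1.31 to 2.34), and Klc3 had 88 and 139, a fold of 1.56 (1.19 to 2.07), with Ercc2 on the opposite strand of its 3′ end. Klc1, the best covered of the light chains with 1408 and 1644 reads, had a fold of 1.16 (1.08 to 1.24), with a coding gene on the opposite strand of its 3′ end. Mapk8ip3, a scaffold that ties cargo to kinesin-1, was the lowest of the 8 outside the rule with 121 and 129 reads. Its interval of 0.817 to 1.36 held 1. Klc2 had 73 and 107 reads, and over the whole table genes whose normalized counts averaged 20 to 100, as those of Klc2 do, had a median log2 change of 0.26, against 0.01 for averages of 100 to 500, where Klc3 and Klc4 lie.

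Kinesin-2 joins Kif3a with Kif3b or Kif3c and the cargo adaptor Kifap3, and works in cilia and in vesicle transport. Its subunits did not share a direction. Kif3a had 308 reads in control and 210 in TSA, a fold of 0.676 (0.564 to 0.807), the lowest of the transport kinesins with enough reads. Kif3b had 1860 and 1674 reads, a fold of 0.891 (0.834 to 0.953), and Kif3c had 199 and 211 with an interval of 0.861 to 1.28. Kifap3 had 158 and 215 reads, a fold of 1.35 (1.09 to 1.66).

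Kinesin-3 motors, which carry endosomes and secretory vesicles, were likewise mixed. Kif13a, a motor of recycling endosomes (chromosome 13, 46749087 to 46929867, minus strand), had 66 reads in control and 140 in TSA, a fold of 2.08 (1.56 to 2.86). Kif1b, a carrier of mitochondria and vesicle precursors, had 553 and 699 reads, a fold of 1.25 (1.12 to 1.40), and Kif1c had 494 and 532 with an interval of 0.942 to 1.21. Kif16b, a motor of early endosomes, went the other way with 170 and 120 reads, a fold of 0.701 (0.549 to 0.888). Kif13b lay just inside the read minimum with 13 and 15 reads. Kifc3, a minus-end motor (chromosome 8, 95099828 to 95202812, minus strand), had 257 and 540 reads, a fold of 2.08 (1.79 to 2.42). Without the strand setting of the counting, the reads of Kifc3 are uncertain.

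Among the other kinesins, 1 of 7 passed 2-fold upwards and 0 downwards, near the 11.5% and 3.15% of all genes. Kif9, a motor known from cilia and flagella (chromosome 9, 110476958 to 110525179, plus strand), had 19 reads in control and 43 in TSA, a fold of 2.18 (1.28 to 4.07). Its normalized counts averaged 20 to 100, a level at which 441 of 2368 genes were higher by more than 2-fold. Kif21b, which restrains microtubule growth and is known in T cells for its part in centrosome polarization (chromosome 1, 136131389 to 136177998, plus strand), had 180 and 341 reads, a fold of 1.87 (1.56 to 2.26), just under the limit. Kif2a, a depolymerase close to Kif2c in sequence family, had 804 and 847 reads and an interval of 0.946 to 1.15, while Kif7, a regulator of Hedgehog signalling, had 135 and 123 reads and an interval of 0.701 to 1.16. Both have a gene on the opposite strand of the 3′ end, Dimt1 at Kif2a and Ticrr at Kif7. Unlike Kif2c, the depolymerase Kif2a thus did not differ beyond its counting error, and the interval of Kif2c lay wholly below that of Kif2a.

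Of 19 subunits of dynein and dynactin with enough reads 0 passed 2-fold or 1.5-fold in either direction. All 19 had normalized counts that averaged 100 or more, a level at which few genes passed 2-fold (1.48% upwards and 1.31% downwards). By interval 7 lay above 1, 2 below 1 and 10 held 1, beside 28.1% above and 28.0% below for all genes. Dync1h1, the heavy chain that holds the motor, had 1620 reads in control and 1622 in TSA, a fold of 0.991 (0.925 to 1.06). Dync1i2, the intermediate chain that binds dynactin, had 2604 and 2810 reads, a fold of 1.07 (1.01 to 1.13). The light intermediate chains Dync1li1 and Dync1li2, which take up cargo adaptors, had 393 and 402 reads and 335 and 322 reads, and both intervals held 1. Dync2h1, the heavy chain of the dynein that works in cilia, had 209 and 182 reads with an interval of 0.703 to 1.06.

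Of the 9 subunits whose interval did not hold 1, 6 were light chains of dynein. Dynll1, the LC8 light chain and a hub for many proteins beyond dynein (chromosome 5, 115297110 to 115300999, minus strand), had 2382 reads in control and 1830 in TSA, a fold of 0.760 (0.715 to 0.809). Its paralog Dynll2 had 2586 and 2644 reads, a fold of 1.01 (0.959 to 1.07), and the intervals of the paralogs did not overlap. No 75-nt window near the 3′ end of Dynll1 was found in Dynll2. Dynlrb1, of the roadblock family, had 1527 and 1309 reads, a fold of 0.849 (0.788 to 0.914). Dynlt3, of the Tctex family (X chromosome, 9654267 to 9663003, minus strand), had 374 and 544 reads. Its fold of 1.44 (1.26 to 1.65) was the highest of the class among genes with enough reads.

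The Dynlt1 copies on chromosome 17 encode the Tctex light chain itself. Dynlt1a, Dynlt1c and Dynlt1f had folds of 1.26, 1.26 and 1.29 with intervals above 1, while Dynlt1b had 269 and 282 reads and an interval of 0.875 to 1.23. A coding gene overlaps the 3′ end of Dynlt1a on the opposite strand. These copies share sequence: 26.8% (Dynlt1a), 67.9% (Dynlt1c), 72.2% (Dynlt1f) and 100% (Dynlt1b) of the 75-nt windows near their 3′ ends occur in at least 1 other copy, so the split of reads among them is uncertain.

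Dynactin links dynein to cargo and makes it processive. Dctn1, the p150 subunit that binds both dynein and microtubules, had 604 reads in control and 643 in TSA, and Dctn2, dynamitin, had 920 and 918, and both intervals held 1. Dctn4 (279 and 295 reads) and Dctn5 (221 and 244 reads), subunits of the pointed end, also had intervals that held 1. Their pointed-end partner Dctn6 had 454 and 627 reads, a fold of 1.37 (1.21 to 1.55). Dctn3, the smallest subunit of the shoulder, had 781 and 973 reads, a fold of 1.23 (1.12 to 1.36), with Il11ra1 on the opposite strand of its 3′ end.

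Of 12 dynein adaptors and regulators with enough reads, 8 were higher and 4 lower in TSA, with a median log2 change of 0.08. By interval 1 lay above 1 and 3 below, not above the 28.1% and 28.0% of all genes. The summed reads were 6631 in control and 5962 in TSA, a ratio of 0.890 (0.860 to 0.922), beside 0.952 for all genes. Spdl1, which recruits dynein to kinetochores in mitosis, was the lowest with 209 reads in control and 121 in TSA, a fold of 0.576 (0.454 to 0.721). Nde1, a dynein regulator that also works in mitosis, had 1679 and 1193 reads, a fold of 0.704 (0.653 to 0.758), whereas Pafah1b1, its partner Lis1, had 2161 and 1937, a fold of 0.888 (0.834 to 0.944). Ccdc64 (Bicdl1), an adaptor for vesicles, was the highest and the 1 gene past 2-fold upwards (11.5% of all genes). With 5 and 13 reads it met the read minimum only through TSA, and its interval of 0.861 to 9.22 held 1. Hdac6, the deacetylase that TSA inhibits, had 146 and 166 reads, a fold of 1.13 (0.896 to 1.42), so its transcript did not differ beyond the counting error.

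**Figure D4:**
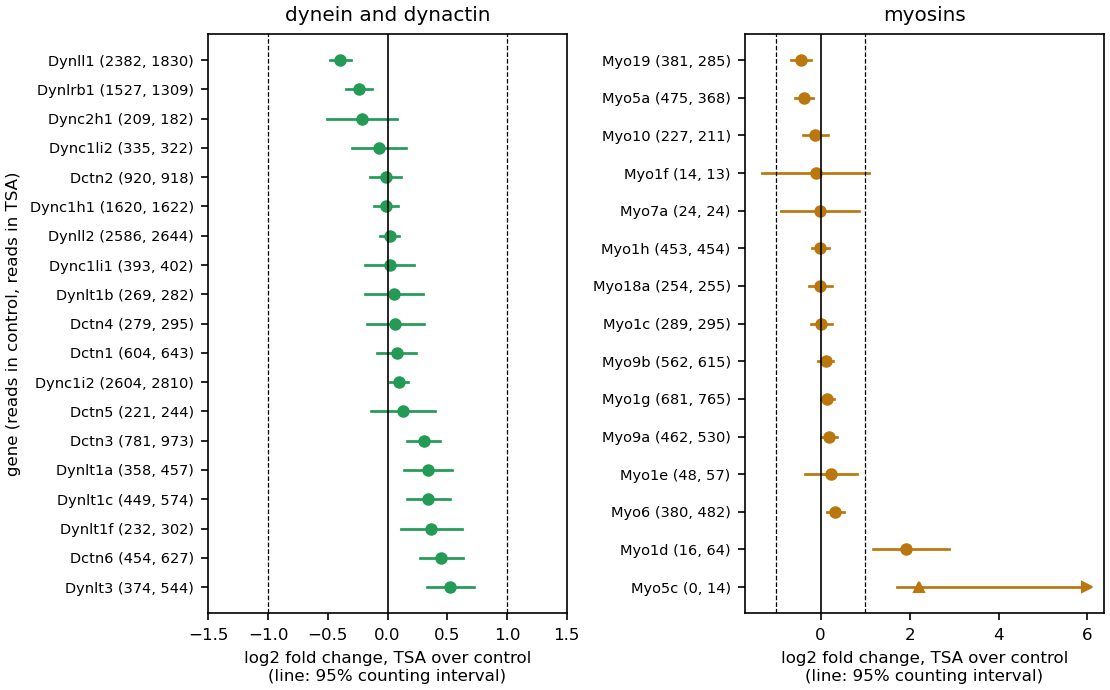
Log2 fold change (TSA over control) of each dynein or dynactin subunit and each myosin with enough reads, with the reads in control and TSA after each name. Points are the fold changes, horizontal lines their 95% counting intervals and dashed lines 2-fold, and the 2 panels have different scales. Dynein and dynactin lie between -0.40 (Dynll1) and 0.53 (Dynlt3). Among myosins Myo1d and Myo5c stand apart, and Myo5c is drawn as a triangle at its lower bound with an interval open to the right.

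The well-covered myosins differed by less than 1.5-fold, and 2 of the 15 with enough reads, both scarce, were higher by more than 2-fold. This share is near the 11.5% of all genes, and among scarce genes such calls were common, at 838 of 1608 genes whose normalized counts averaged under 20 and 441 of 2368 that averaged 20 to 100. Myo1d, a class I myosin that ties membranes to actin (chromosome 11, 80482126 to 80780025, minus strand), had 16 reads in control and 64 in TSA, a fold of 3.79 (2.26 to 7.34). Myo5c, a class V carrier of secretory vesicles known from glands (chromosome 9, 75232020 to 75305451, plus strand), had 0 and 14 reads. With the control set to the floor of 3 reads and without the added 1, Myo5c was 4.62-fold higher. Its lower counting bound was 3.28. It met the read minimum only through the TSA library, so it could be called only as higher. For Myo1d the whole interval lay beyond 2-fold, as it did upwards for 604 of all 12164 genes.

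The other class I myosins did not follow Myo1d. Myo1g, the class I myosin of blood cells, which sits at the plasma membrane of lymphocytes, had 681 reads in control and 765 in TSA, a fold of 1.11 (1.002 to 1.23). Myo1c, a tether in exocytosis, had 289 and 295 reads with an interval of 0.856 to 1.19. Myo1f lay just inside the read minimum with 14 and 13 reads. Myo1h had 453 and 454 reads, but Kctd10 overlaps its 3′ end on the opposite strand, and these reads cannot be assigned to Myo1h without strand.

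By interval, 2 of the 15 myosins with enough reads lay below 1 and 5 above 1, beside 28.0% and 28.1% of all genes. The 2 below 1 were Myo5a and Myo19. Myo5a, the class V carrier of vesicles and endoplasmic reticulum, had 475 reads in control and 368 in TSA, a fold of 0.767 (0.668 to 0.881). Myo19, the mitochondrial myosin, which is needed to share mitochondria out at division, had 381 and 285 reads, a fold of 0.742 (0.633 to 0.866), with Znhit3 overlapping its 3′ end on the opposite strand. Myo6, the myosin that walks towards the minus end of actin, went the other way with 380 and 482 reads, a fold of 1.26 (1.10 to 1.44). Myo9a and Myo9b, the class IX myosins, had 462 and 530 reads (1.14, 1.001 to 1.29) and 562 and 615 reads (1.08, 0.965 to 1.22). Myo10, the motor of filopodia (227 and 211 reads), and Myo18a, a Golgi-linked myosin (254 and 255 reads), had intervals that held 1.

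Myosin II, the conventional myosin that contracts the cortex and the cleavage ring, lies outside the symbol rule. Of its 8 genes with enough reads 5 were higher and 3 lower in TSA, near the split of all genes, and 3 were higher by more than 2-fold (11.5% of all genes), with a median log2 change of 0.41. The median rested on 2 genes with few reads, Myl6b and Mylk, and was -0.0015 when at least 10 reads in both libraries were asked for, while the summed reads of the list were 20680 in control and 20077 in TSA, a ratio of 0.961 (0.943 to 0.980). Myh9, the main heavy chain of blood cells, had 8663 reads in control and 7847 in TSA, a fold of 0.897 (0.870 to 0.925), while the other heavy chain Myh10 had 55 and 118, a fold of 2.10 (1.53 to 2.98). The light chains Myl6 (4812 and 5032 reads) and Myl12a (5076 and 4942 reads) had intervals that held 1, and Myl12b had 469 and 805 reads, a fold of 1.70 (1.52 to 1.91). Myl6b, another light chain, was at 0 in control with 16 reads in TSA, and it met the read minimum only through TSA. Against the floor of 3 reads and without the added 1, Myl6b was 5.28-fold higher, with a lower counting bound of 3.82. Mylk, the light chain kinase, had 4 and 10 reads with an interval of 0.714 to 10.8, and it too met the read minimum only through TSA. Ppp1r12a, which targets the phosphatase that acts on myosin II, was the lowest of the list at 0.809 (0.752 to 0.871).

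**Figure D5:**
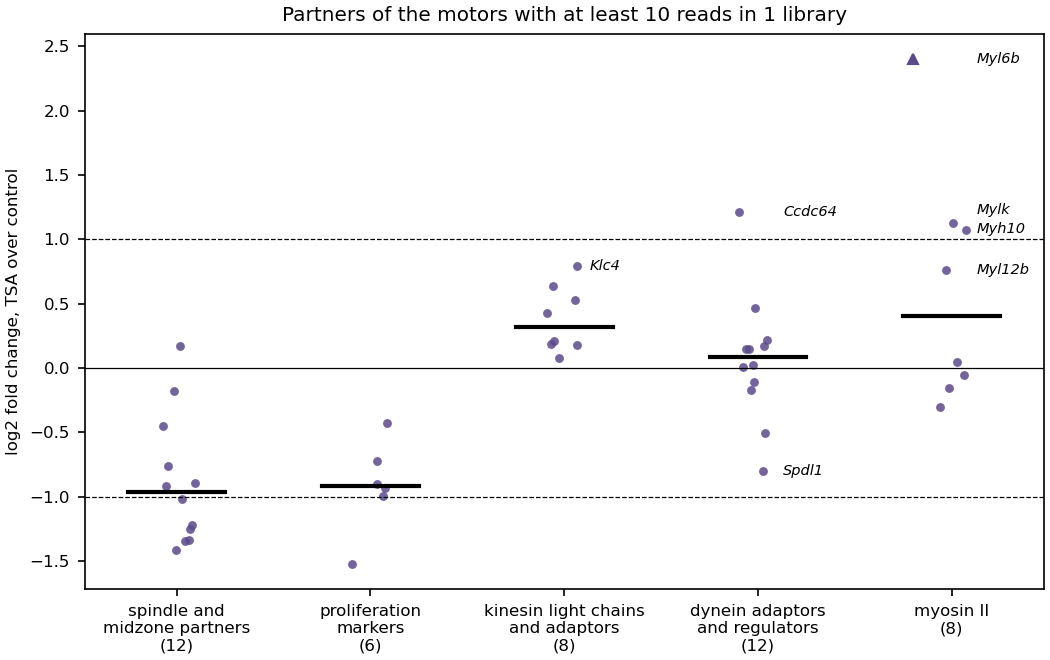
Log2 fold change (TSA over control) of the genes that work with the motors, with 1 point per gene with enough reads, black bars at the list medians and dashed lines at 2-fold. Spindle partners and proliferation markers lie mostly below 0 (medians -0.97 and -0.91), kinesin light chains and adaptors outside the symbol rule above 0 (0.32), and dynein adaptors around 0 (0.08). The median of myosin II (0.41) rests on 2 genes with few reads. The triangle is Myl6b, drawn at its lower bound because it had 0 reads in control.

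Few reads limited the rest of the families. Of the 87 motor subunits 11 had no read in either library, among them Kif17, Dync1i1, Dynlrb2, Myo3a, Myo3b and Myo15, and 12 reached no more than 1 to 9 reads in either library. Just under the minimum lay Myo16 with 0 reads in control and 9 in TSA, Kif26a with 0 and 8, and Dync2li1 with 3 and 7. In all, 6 subunits (6.9%) had reads in TSA alone and 2 (2.3%) in the control alone, against 8.33% and 2.75% of all rows, so the share gained in TSA was not above that of the table as a whole. Of the 3 rows that are not motor subunits, Kif1bp, a protein that binds the motor domains of several kinesins and blocks them from microtubules, had 138 reads in control and 83 in TSA, a fold of 0.598 (0.448 to 0.788). The pseudogene Kif4-ps had 0 and 1 reads and the antisense RNA Kif16bos 0 and 3. Besides the overlaps given above, noncoding genes lie over the 3′ ends of Kif18b, Kif3c, Kifc5b, Dynlt1b, Dctn5, Myo9a, Klc4, Myl12a, Myl12b and Mylk, and coding genes on the same strand over those of Mapk8ip3 and Myl12a (the latter by Myl12b), so the reads of these genes are likewise uncertain.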

How the data were processed

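RNA from 1 control and 1 TSA-treated iTreg culture was sequenced by the authors with QuantSeq 3′ libraries (single-end 75-nt reads) and analysed in ExDEGA, and the submitters' processing notes name Bowtie2, bedtools and mm10. The authors deposited log2 values of a normalized count plus 1 for 23282 rows. Their scaling method and strand setting are not given in the sources used here. Back-transformed values were multiples of 1.005 (control) and 0.995 (TSA), and of those from 1 to 300 reads, 100% and 99.9% lay within 0.1 of whole reads. The 1940 control rows without reads that were listed at up to 0.016 were read as 0.

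The change is the TSA value minus the control value. With 1 library per condition no test was run. Motor classes, partner lists and members were chosen with earlier results of these data known. Named are members past 2-fold or whose normalized count averaged 100 or more, all mitotic kinesins, members near the read minimum, and, of the partner lists, genes past 1.5-fold, the highest and lowest, Hdac6, Cenpe and Mki67. Kifc5b, Klc1, Klc2, Kifap3, Racgap1, Nde1, Pafah1b1, Myh9, Myl6 and Myl12a were added after their values were seen. Positions and shared 75-nt windows (last 500 nt of transcripts) are from GENCODE M21. Steps were tested on simulated data. Python 3.11.15, numpy 2.4.6, scipy 1.17.1 and pandas 2.3.3 were used. Some items are not reported here. Alternatives covered scaling, pseudocount, filter and threshold.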

Additional observations from a re-analysis of the deposited data

How the results depend on the processing

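No paired analysis was possible because each condition had 1 library, so that leaving one out was not possible either. Medians of the 5 motor classes moved by no more than 0.1 on the log2 scale under all alternatives run for them, as did those of the partner lists except 2. The myosin II median of 0.41 became -0.0015 with at least 10 reads in both libraries or with an average of 50 or more, and 0 without a filter. That of the kinesin light chains and adaptors went from 0.32 to 0.43 without a filter. Of the 64 motor subunits with enough reads, all stayed within their own counting intervals under 4 other scalings (total reads, upper quartile, median of ratios, trimmed mean of M-values) and pseudocounts of 0.1 and 5. The scalings by total reads and the upper quartile turned 5 genes near 0 (Dctn2, Dync1h1, Myo7a, Myo1h and Myo18a) from just below to just above 0, and the pseudocount of 5 brought Kifc1 (-0.96) and Kif9 (0.99) inside 2-fold.

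Counts depended most on the filter and the threshold. The 6 motor subunits higher by more than 2-fold became 11 without a filter, 3 where the normalized count averaged 50 or more, and 3 when the whole interval had to lie beyond 2-fold. The 6 lower ones, all mitotic kinesins, became 10 at 1.5-fold and 3 by the whole interval. By the whole interval, 604 of all 12164 genes lay beyond 2-fold upwards and 99 downwards. The 1 dynein adaptor past 2-fold became 0 with a pseudocount of 5, with at least 10 reads in both libraries, or with an average of 50 or more. The 3 myosin II genes became 1 under both of these filters, and the 0 kinesin partners became 1 without a filter. Scaling by total reads or upper quartile left 5 of the 6 spindle genes past 2-fold.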

Other observations

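Axonemal dyneins and the remaining chains of the ciliary dynein, looked at after the data were seen, lie outside the symbol rule. Of 11 Dnah rows, which encode heavy chains of axonemal dynein, the motor of cilia and flagella, 3 had enough reads. Dnah11 had 392 reads in control and 633 in TSA, a fold of 1.60 (1.41 to 1.82), but Cdca7l overlaps its 3′ end on the opposite strand, so the reads cannot be assigned to it without strand. Dnah8 had 37 and 55 reads with an interval of 0.953 to 2.30, and Dnah6 had 0 and 14 reads and met the read minimum only through TSA. Other genes also lie on the opposite strand of the 3′ ends of Dnah8 and Dnah6. Of the intermediate chains of the ciliary dynein, Wdr60 had 131 and 126 reads and Wdr34 had 51 and 67, and both intervals held 1.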
